A study of Mus musculus with 2 samples.

Results

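The 46 genes described here encode nuclear receptors of the mouse. They were chosen by gene symbol, through the match of the deposited gene identifiers to GENCODE M21, and all 46 were found among 43346 mouse genes. The RNA-seq libraries were made from total RNA above 200 nt, from the urinary bladders of 2 newborn pups of the inbred strain B6NCrl, taken on postnatal day 0. Both pups came from 1 pregnant female, each gave 1 library made from 10 ng of RNA, and the labels give neither a sex nor a treatment. The pups form a single group (n = 2), so the levels are given as TPM (length-scaled transcript abundance) in pup 2 and pup 1 with their SD, and no p-value across animals could be computed. Whole bladder mixes epithelium, muscle, connective tissue, vessels and blood, and in such bulk RNA fewer cells of a type and less RNA per cell cannot be told apart.

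Nuclear receptors are transcription factors that bind DNA through a zinc finger domain and, in many members, a small lipophilic ligand through a pocket in the other end of the protein. Some steroid receptors, such as the glucocorticoid receptor, wait in the cytoplasm on heat shock chaperones until hormone arrives. Thyroid hormone, retinoic acid, oxysterol and fatty acid receptors instead sit on DNA as pairs with a retinoid X receptor. These pairs exchange corepressors for coactivators when ligand binds. Orphan members have no established hormone and act through their amount or their constitutive activity. In the bladder, retinoic acid and PPARγ are known for roles in the formation and differentiation of the urothelium.

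The library of pup 2 held 32564563 expected counts, against 43653931 for that of pup 1. Where a gene had no count, up to 3 counts remain possible, equal to 0.125 TPM (pup 2) or 0.100 TPM (pup 1) at an effective length of 1 kb. These limits, like all intervals below, describe counting error alone. Of the marker lists for the bladder's own tissues, summed levels were 54989 TPM in pup 2 and 59978 TPM in pup 1 for smooth muscle, 7766 and 8319 TPM for urothelium, and 8694 and 10031 TPM for fibroblasts. Blood markers stood apart between the pups: the 8 erythroid genes measured summed to 59107 TPM in pup 2 and 21722 TPM in pup 1, with 8 of 8 at least 1.5-fold higher in pup 2. Neutrophil markers summed to 378 TPM in pup 2 and 37.6 TPM in pup 1, with 4 of the 5 that had enough counts higher in pup 2. Endothelial markers summed to 154 TPM in pup 2 and 133 TPM in pup 1. Neuron and Schwann cell markers summed to 240 and 255 TPM, most of it from Uchl1, with 197.77 TPM in pup 2 and 225.03 TPM in pup 1. By counts 7 of these 9 markers were higher in pup 2 and 2, Uchl1 among them, lower. Kidney markers summed to 0.88 TPM in pup 2 and 0.20 TPM in pup 1, with Nphs1, Slc12a1 and Umod at 0 counts in both. The part of these cells in the level of any receptor was not tested.

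At 1 TPM or more in both pups, 24 of the 46 receptors (52.2%) were detected, beside 58.5% of 21474 protein-coding genes. Another 21 lay below 1 TPM in both pups, and Nr1h4 passed in pup 2 alone. The median of the members' mean levels was 1.63 TPM, against 3.36 TPM over protein-coding genes. All 46 together summed to 386 TPM in pup 2 and 406 TPM in pup 1. The set was therefore uneven: 12 members had a mean of at least 10 TPM, and 3 had no count in either pup.

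**Figure D1:**
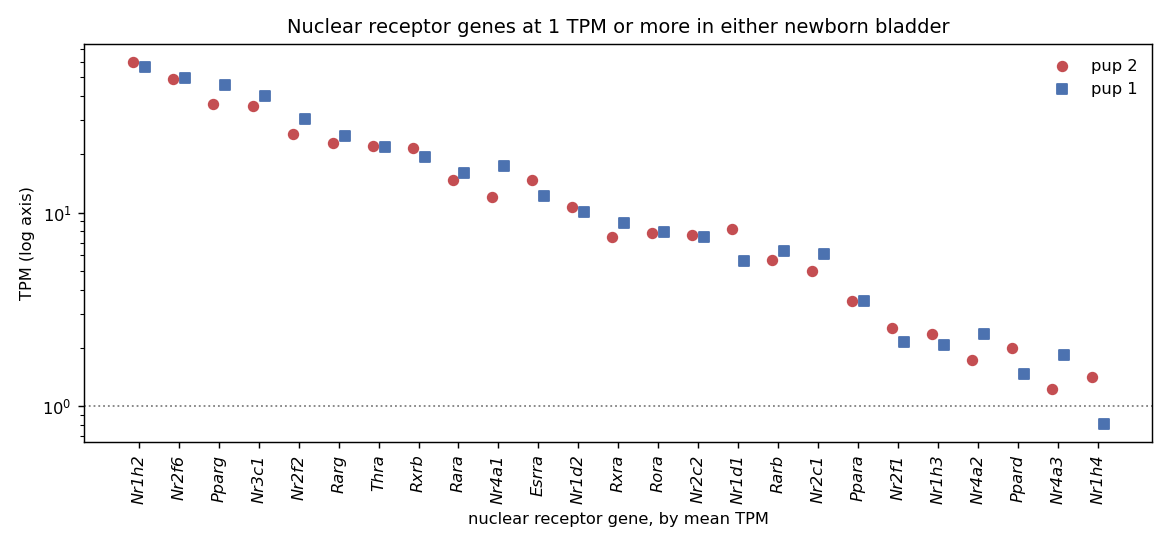
Level of the 25 nuclear receptor genes at 1 TPM or more in either pup, in TPM (log axis) in pup 2 and pup 1, with members ordered by mean level and a dotted line at 1 TPM. Nr1h2 leads at 59.95 TPM in pup 2 and 56.73 TPM in pup 1, and the points of the same gene lie close together compared with the spread between genes.

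The order of the levels was partly resolved by the pups. Among the 25 members with a mean of at least 1 TPM there are 24 pairs of neighbours, and the ranges of the pups overlapped in 12 pairs and were apart in 12. Nr1h2 and Nr2f6 stood above all others and apart from each other. Pparg and Nr3c1, at ranks 3 and 4, overlapped, as did Rara, Nr4a1 and Esrra at ranks 9 to 11. From Nr2f1 at rank 20 to Nr1h4 at rank 25 every neighbouring pair overlapped.

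Among the receptors for oxysterols and bile acids, Nr1h2, which encodes the widely expressed oxysterol receptor LXRβ, was the highest of the 46. It had 59.95 TPM in pup 2 and 56.73 TPM in pup 1 (58.3 ± 2.28, SD, n = 2). Nr1h3, the LXRα gene known from liver and macrophages, had 2.35 TPM in pup 2 and 2.06 TPM in pup 1. Nr1h2 made up 94.1% of the summed level of both LXRs and the bile acid receptor FXR in pup 2, and 95.2% in pup 1. Nr1h4, which encodes FXR, had 1.42 TPM in pup 2 and 0.81 TPM in pup 1, from 65 and 46 counts. Nr1h2 was spread over 11 of its 13 listed transcripts, of which the leading one held 40.8% of the gene in pup 2 and 45.4% in pup 1.

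Of the fatty acid receptors, Pparg was the third highest member. It encodes PPARγ, which drives adipocyte differentiation and is also a regulator of urothelial differentiation. Pparg had 36.27 TPM in pup 2 and 45.89 TPM in pup 1 (41.1 ± 6.80, SD, n = 2), the largest SD among the 46 members. It held 86.8% of the summed PPAR level in pup 2 and 90.3% in pup 1. Ppara, the PPAR of hepatic fatty acid oxidation, had 3.50 TPM in pup 2 and 3.47 TPM in pup 1. The broadly expressed Ppard had 2.00 TPM in pup 2 and 1.47 TPM in pup 1. Of the 8 adipocyte markers, Adipoq, Cidec and Lep had 0 counts in both pups, Plin1 had 0 counts in pup 2 and 1 count in pup 1, and Retn had 2 counts in pup 2 and 0 in pup 1. Fabp4, Pnpla2 and Lpl carried nearly all of the list's sum of 757 TPM in pup 2 and 892 TPM in pup 1. The part of fat cells in the level of Pparg was not tested.

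The Pparg transcripts listed encode 2 proteins. The 505-residue protein, known as PPARγ2 and typical of fat, carries 30 residues at its start that the 475-residue protein lacks. The coding bases of that extra stretch, from GENCODE M21 on GRCm38 chromosome 6, plus strand, between 115422111 and 115439847 across an intron, are shown because they are all that sets the longer form apart, with the start codon in capitals.
Pparg-201: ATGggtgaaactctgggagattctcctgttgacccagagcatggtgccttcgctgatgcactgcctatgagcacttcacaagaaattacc
The shorter form prevailed in both pups. Pparg-202, which encodes the 475-residue protein, held 75.1% of the gene in pup 2 and 83.6% in pup 1, from 1145 and 2018 estimated counts. Pparg-201 held 24.9% in pup 2 and 16.4% in pup 1, from 361 and 377 estimated counts. The pups differed by 8.47 points, and the division of shared reads is the authors' estimate.

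All 3 retinoic acid receptors were detected, in the same proportions in both pups. Rarg, the retinoic acid receptor known from skin and cartilage, had 22.78 TPM in pup 2 and 24.78 TPM in pup 1 (23.8 ± 1.41, SD, n = 2). Rara, the most widely expressed of the family, had 14.76 TPM in pup 2 and 15.95 TPM in pup 1. Rarb, which is itself a retinoic acid target, had 5.67 TPM in pup 2 and 6.31 TPM in pup 1. As shares of the family, Rarg held 52.7% in pup 2 and 52.7% in pup 1, Rara 34.2% and 33.9%, and Rarb 13.1% and 13.4%. The exons of Rarb overlap those of Top2b on the opposite strand over 57.7% of their length, and with the strand setting of the counting unknown their reads cannot be told apart.

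The shared partners of these receptors were led by Rxrb. Rxrb had 21.55 TPM in pup 2 and 19.39 TPM in pup 1 (20.5 ± 1.53, SD, n = 2). Rxra had 7.46 TPM in pup 2 and 8.81 TPM in pup 1. Rxrg, known from muscle and brain, had 0.29 TPM in pup 2 and 0.16 TPM in pup 1. Rxrb therefore held 73.5% of the summed RXR level in pup 2 and 68.4% in pup 1, and Rxra 25.5% and 31.1%.

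Rara and Rarg each produce proteins that differ at their start, in the part that carries the ligand-independent activation function. The first 90 coding bases of each form, read from GENCODE M21 on GRCm38, are shown with the start codon in capitals, since the forms differ there and share their later parts. They lie at chr11:98960965-98961054 (plus strand) for Rara-202, chr11:98950618-98950707 (plus strand) for Rara-204, chr15:102252513-102252602 (minus strand) for Rarg-201 and chr15:102246121-102246210 (minus strand) for Rarg-202.
Rara-202: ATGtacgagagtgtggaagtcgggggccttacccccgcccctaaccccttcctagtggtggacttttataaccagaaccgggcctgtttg
Rara-204: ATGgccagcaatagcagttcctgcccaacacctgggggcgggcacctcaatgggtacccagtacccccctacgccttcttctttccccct
Rarg-201: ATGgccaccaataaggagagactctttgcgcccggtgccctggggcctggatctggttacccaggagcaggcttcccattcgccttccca
Rarg-202: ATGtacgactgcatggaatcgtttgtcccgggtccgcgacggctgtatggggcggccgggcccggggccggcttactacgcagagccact
The coding sequences of Rara-202 and Rara-204 share their last 1208 bases, and those of Rarg-201 and Rarg-202 their last 1191. Rara-202 encodes 459 residues and held 61.9% of Rara in pup 2 and 47.0% in pup 1. The 4 transcripts that encode 462 residues, Rara-204 among them, held 38.1% in pup 2 and 53.0% in pup 1. The order of the Rara proteins thus differed between the pups, by 14.84 points. For Rarg the 458-residue form, Rarg-201, led in both pups, at 57.3% in pup 2 and 49.4% in pup 1. The 447-residue form, Rarg-202, held 39.9% in pup 2 and 43.2% in pup 1.

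**Figure D2:**
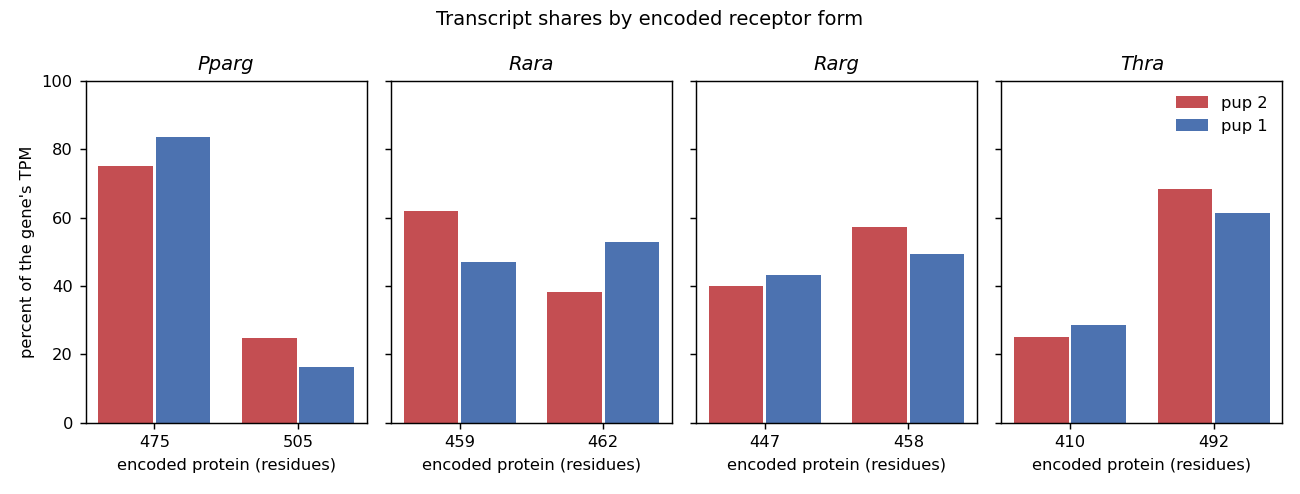
Share of each gene's transcripts, in percent of the gene, by encoded protein for Pparg, Rara, Rarg and Thra in pup 2 and pup 1. The 475-residue Pparg protein leads in both pups at 75.1% and 83.6%, while for Rara the 459-residue protein leads in pup 2 at 61.9% and the 462-residue protein leads in pup 1 at 53.0%.

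The leading transcript was the same in both pups in 16 of the 16 members compared, Pparg, Rara and Rarg among them. The members compared had a mean of at least 5 TPM and at least 2 listed transcripts. All 16 leading transcripts are annotated as protein coding. The leading transcript exceeded 50% of its gene in both pups in 11 of the 16, and as the mean of the pups in 14. Its share moved by less than 10 points between the pups in 15, the exception being Rara. Apart from Nr1d1, which had all of its TPM in 1 transcript in both pups, Nr3c1 showed the closest shares. Its leading transcript held 60.7% of the gene's TPM in pup 2 and 60.5% in pup 1. That transcript has 1891 bases, and it led per length only. Its annotated coding sequence of 1466 bases is not a whole number of codons, so it is incomplete and defines no full receptor form. By estimated counts it took 928.7 in pup 2 and 1301.9 in pup 1. A transcript of 6436 bases that encodes 792 residues took more, with 1376 in pup 2 and 2076.4 in pup 1.

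Of the thyroid hormone receptors only Thra passed 1 TPM. Thra had 22.12 TPM in pup 2 and 21.87 TPM in pup 1 (22.0 ± 0.177, SD, n = 2). Thrb, the receptor of liver and pituitary, had 0.35 TPM in pup 2 and 0.50 TPM in pup 1. Most Thra RNA encoded a product that does not bind hormone: Thra-201, whose 492-residue protein has an alternative end, held 68.3% of the gene in pup 2 and 61.4% in pup 1. Thra-202, which encodes the 410-residue hormone-binding receptor, held 25.0% in pup 2 and 28.6% in pup 1. The last exons of Thra and Nr1d1 lie on opposite strands and overlap over 263 bases, which is 5.70% of the Thra exons and 8.55% of those of Nr1d1.

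COUP transcription factors, orphan receptors of organ and vessel development, formed the largest family by summed level, with 76.88 TPM in pup 2 and 82.26 TPM in pup 1. Nr2f6 had 48.85 TPM in pup 2 and 49.58 TPM in pup 1 (49.2 ± 0.516, SD, n = 2). Nr2f2, which specifies venous endothelium and is made by mesenchyme, had 25.51 TPM in pup 2 and 30.54 TPM in pup 1. Nr2f1, best known from neural development, had 2.52 TPM in pup 2 and 2.14 TPM in pup 1. Nr2f6 held 63.5% of the family in pup 2 and 60.3% in pup 1, and Nr2f2 33.2% and 37.1%. The exons of Nr2f6 overlap those of Ocel1 on the opposite strand over 54.4% of their length.

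**Figure D3:**
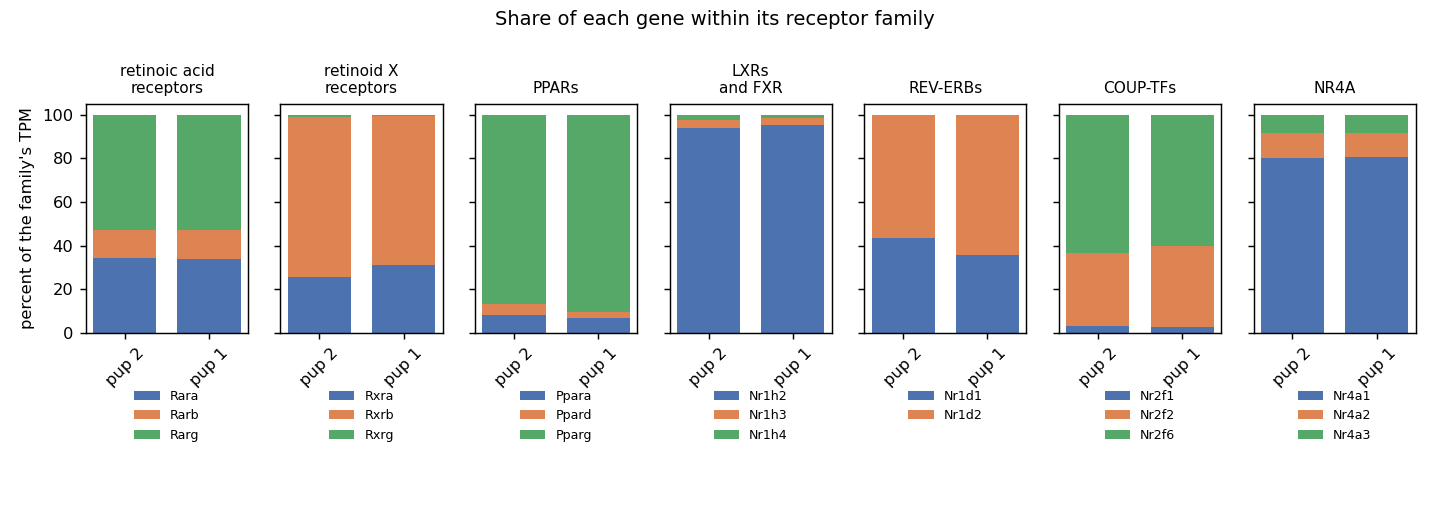
Share of each gene, in percent of the summed TPM of its receptor family, as stacked bars for pup 2 and pup 1 in 7 families. The retinoic acid receptors keep the same proportions (Rarg 52.7% in both pups), while Nr1d1 holds 43.4% of the REV-ERB pair in pup 2 and 35.9% in pup 1.

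Steroid receptors were dominated by the glucocorticoid receptor. Nr3c1, which encodes it, had 35.70 TPM in pup 2 and 40.14 TPM in pup 1 (37.9 ± 3.14, SD, n = 2). Nr3c2, the mineralocorticoid receptor of salt-handling epithelia, had 0.56 TPM in pup 2 and 0.82 TPM in pup 1. Esr1, the main estrogen receptor of the reproductive tract, had 0.85 TPM in pup 2 and 0.50 TPM in pup 1. These and the other sex steroid receptors in the set were all under 1 TPM, with Esr2 at 0.04 and 0.09 TPM and the progesterone receptor gene Pgr at 0.15 and 0.10 TPM in pup 2 and pup 1. Of the estrogen-related receptors, orphans that control mitochondrial genes, only Esrra was above 1 TPM, with 14.80 TPM in pup 2 and 12.21 TPM in pup 1.

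The receptors of the circadian clock were all measured above the threshold except Rorb. Nr1d2, a heme-binding repressor of clock genes, had 10.72 TPM in pup 2 and 10.08 TPM in pup 1. Its paralogue Nr1d1 had 8.22 TPM in pup 2 and 5.65 TPM in pup 1. Rora, an activator that competes with both for the same DNA element, had 7.87 TPM in pup 2 and 7.94 TPM in pup 1. The neuronal Rorb had 0.08 TPM in each pup. Nr1d1 held 43.4% of the summed level of the repressor pair in pup 2 and 35.9% in pup 1, so the pair was less even in pup 1.

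The testicular orphan receptors, which act as repressors in many tissues, were both present. Nr2c2 had 7.61 TPM in pup 2 and 7.47 TPM in pup 1. Nr2c1 had 4.97 TPM in pup 2 and 6.11 TPM in pup 1. The exons of Nr2c2 overlap those of Mrps25 on the opposite strand over 38.6% of their length.

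NR4A receptors are immediate early genes: their transcription rises within minutes of a growth factor, cyclic AMP or stress signal, and they need no known hormone. All 3 were lower in pup 2. Nr4a1 had 12.01 TPM in pup 2 and 17.46 TPM in pup 1 (14.7 ± 3.85, SD, n = 2). Nr4a2 had 1.73 TPM in pup 2 and 2.36 TPM in pup 1. Nr4a3 had 1.22 TPM in pup 2 and 1.84 TPM in pup 1. Nr4a1 made up 80.3% of the family in pup 2 and 80.6% in pup 1, so the makeup of the family was alike. Per length, the leading Nr4a3 transcript was a short one annotated without a coding sequence, with 67.5% of the gene's TPM in pup 2 and 77.3% in pup 1. It took only 15.7 of the gene's 66 estimated counts in pup 2 and 33.8 of 104 in pup 1, and the other counts fell on transcripts annotated as protein coding.

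The promoters of the NR4A genes share a sequence feature. The motif TGACG, the core of the element bound by cyclic AMP response factors, was searched on both strands, where it reads as CGTCA on the other strand. It occurs in 20.8% of 32851 RefSeq promoter windows of 300 bases, and in 17 of 63 windows of 42 members (27.0%). At least 4 copies in the 250 bases before the start occur in 45 windows, 0.137% of all, and 3 members have such a window: Nr4a1, Nr4a2 and Nr4a3. The 250 bases before the RefSeq start on GRCm38.p6 are shown for these, with each motif in capitals, at chr15:101266596-101266845 (plus strand), chr2:57124004-57124253 (minus strand) and chr4:48045055-48045304 (plus strand).
Nr4a1: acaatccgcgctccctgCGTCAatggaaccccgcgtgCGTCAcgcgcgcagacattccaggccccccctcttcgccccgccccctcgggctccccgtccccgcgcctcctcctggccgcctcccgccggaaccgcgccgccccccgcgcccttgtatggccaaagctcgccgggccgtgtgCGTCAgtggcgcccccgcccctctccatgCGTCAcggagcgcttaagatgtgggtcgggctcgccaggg
Nr4a2: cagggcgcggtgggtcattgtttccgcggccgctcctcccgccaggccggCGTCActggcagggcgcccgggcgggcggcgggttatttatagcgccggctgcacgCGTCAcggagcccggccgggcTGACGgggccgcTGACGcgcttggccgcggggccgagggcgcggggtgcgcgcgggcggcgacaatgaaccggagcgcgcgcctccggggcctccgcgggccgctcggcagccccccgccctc
Nr4a3: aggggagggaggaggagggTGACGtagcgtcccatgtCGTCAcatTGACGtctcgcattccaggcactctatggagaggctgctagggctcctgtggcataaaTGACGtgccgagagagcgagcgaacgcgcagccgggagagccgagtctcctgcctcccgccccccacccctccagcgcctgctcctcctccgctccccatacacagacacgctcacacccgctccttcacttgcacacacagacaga
In Nr4a1 the copies begin 233, 213, 69 and 40 bases before the start. The copies of Nr4a2 begin 200, 144, 123 and 111 bases before it, and those of Nr4a3 231, 213, 205 and 147 bases before it. A match of letters is a description and shows no binding.

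A further window is shown for Rarb because it carries a form of the repeat that retinoic acid receptors are known to bind. The form searched, GTTCA, then 6 free bases, then GTTCA, occurs once, in capitals. The window lies before an internal Rarb start at chr14:16575477-16575726 on the minus strand of GRCm38.p6.
Rarb: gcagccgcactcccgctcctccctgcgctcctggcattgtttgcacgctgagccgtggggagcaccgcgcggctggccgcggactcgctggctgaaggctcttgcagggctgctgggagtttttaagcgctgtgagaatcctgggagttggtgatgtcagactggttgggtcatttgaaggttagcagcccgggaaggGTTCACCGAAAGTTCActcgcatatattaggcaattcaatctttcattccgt
This repeat, searched on both strands, occurs in 25 of all RefSeq windows (0.0761%), and 1 member, Rarb, has it. Rarb was picked to be shown with this pattern, so the match is a description and its rarity tests nothing. The other motifs searched on both strands were spread more widely. The full cyclic AMP element TGACGTCA, which contains TGACG, is in 1.79% of windows and in those of 2 members. The E-box CACGTG is in 7.15% and in those of 5 members, the receptor core site AGGTCA in 16.3% and in those of 11 members, and the element TTATGNAA in 3.39% and in that of 1 member.

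The remaining receptors were all under 1 TPM. Vdr, the vitamin D receptor, had 0.39 TPM in pup 2 and 0.32 TPM in pup 1. Nr6a1, a germ cell and embryonic orphan, had 0.66 TPM in pup 2 and 0.80 TPM in pup 1. The steroidogenic factor gene Nr5a1 had 0.21 TPM in pup 2 and 0.30 TPM in pup 1, and its relative Nr5a2 had 0.36 and 0.29 TPM. The liver and gut factor gene Hnf4a had 0.24 TPM in pup 2 and 0.33 TPM in pup 1. Nr2e3, Nr1i3, Esrrg, Rorb, Esr2 and Pgr each stayed at or under 0.26 TPM in both pups. The exons of Nr1i3 overlap those of Tomm40l on the opposite strand over 74.9% of their length. No count was found in pup 2 for Nr1i2, Esrrb and Nr0b2, which had 0.01, 0.05 and 0.03 TPM in pup 1. Hnf4g, Nr2e1 and Nr0b1 had 0 counts in both pups, so levels under the limits given above would not be detectable at this depth. Of the 6 adrenal and gonad markers, summed at 4.93 TPM in pup 2 and 1.75 TPM in pup 1, Cyp21a1 had 0 counts in both pups. Cyp11a1, the enzyme that starts steroid synthesis, carried most of that sum, with 4.58 TPM in pup 2 and 1.09 TPM in pup 1 (log2 ratio 2.15, counting interval 1.75 to 2.57), and its relation to the receptors was not tested.

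Between the pups, the receptors were compared by the log2 ratio of TMM-scaled expected counts, pup 2 over pup 1, in the 33 members that averaged 20 counts or more. The other 13 had too few counts. The median ratio was 0.13 on the log2 scale, against -0.01 over all genes of that depth, and 20 members were higher in pup 2 and 13 lower. By the ratio of deposited TPM, which runs 0.08 lower on the log2 scale over all genes, the median of the members was -0.02, so the sign of this small shift depends on the scale. The extremes were -0.49 for Nr5a1 and 0.90 for Nr1h4. Differences within 1.2-fold were found for 19 of the 33 (57.6%), beside 69.5% of all genes of that depth.

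Ratios of at least 1.5-fold in favour of pup 2 were found for 5 members (15.2%), beside a background of 6.27% of 15605 genes. No member was 1.5-fold or more lower in pup 2, beside a background of 3.35%. The 5 were Nr1h4, Vdr, Esr1, Nr1d1 and Nr1h3, and 4 of them had under 150 counts in each pup. Nr1d1 was the exception, with 516 counts in pup 2 and 443 in pup 1. At a mean count of 100 or more only Nr1d1 was past the threshold, beside 3.25% of genes higher and 1.67% lower. By the ratio of deposited TPM, Nr1h4 and Esr1 stayed past 1.5-fold, while Nr1d1 stood at 0.54, Vdr at 0.29 and Nr1h3 at 0.19, all under 1.5-fold. No member was 2-fold apart, beside backgrounds of 2.85% higher and 0.865% lower.

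Nr1h4 was 1.87-fold higher in pup 2 (log2 ratio 0.90, counting interval 0.34 to 1.48), from 65 counts in pup 2 and 46 in pup 1. Vdr followed at a log2 ratio of 0.82 (0.10 to 1.55), from 40 counts in pup 2 and 30 in pup 1. Esr1 stood at 0.77 (0.35 to 1.20), from 111 and 86 counts. All 3 are low genes with wide intervals. Nr1d1 had a log2 ratio of 0.62 (0.44 to 0.81), the narrowest interval of the 5. For Nr1h3 the log2 ratio was 0.61 (0.18 to 1.05), from 98 counts in pup 2 and 85 in pup 1. Just outside the threshold was Nr5a2 at 0.58, from 26 counts in pup 2 and 23 in pup 1.

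**Figure D4:**
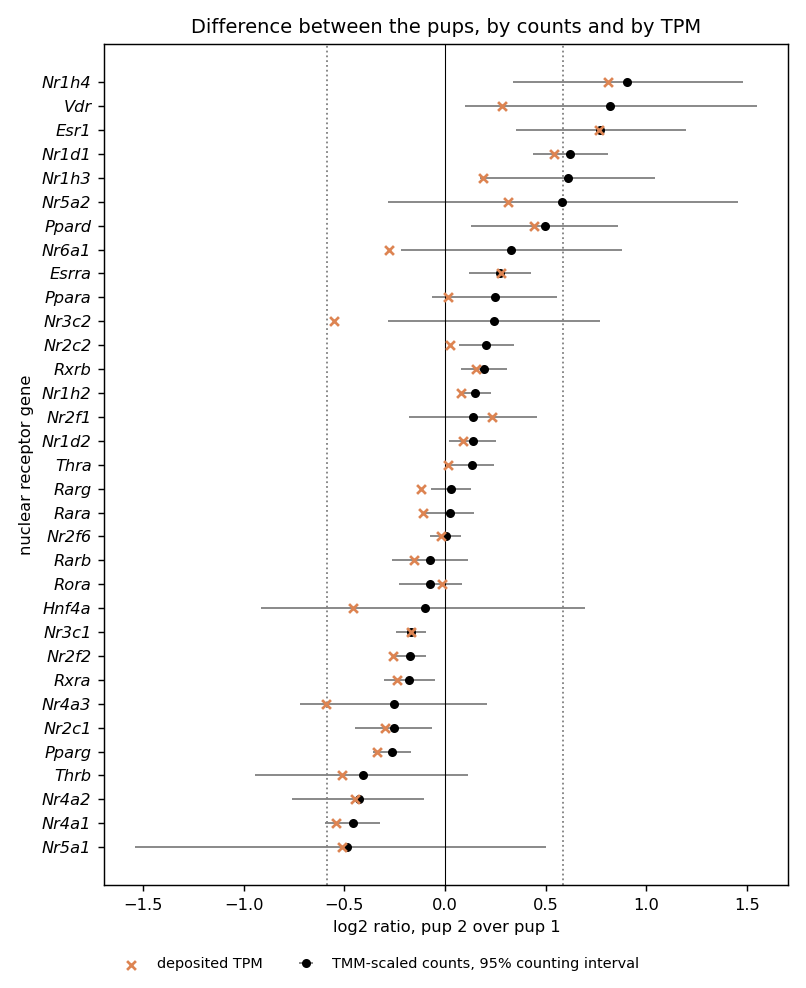
Log2 ratio of TMM-scaled expected counts, pup 2 over pup 1, for the 33 nuclear receptor genes averaging at least 20 counts, with 95% counting intervals, dotted lines at 1.5-fold and crosses for the ratio of deposited TPM. By counts the 5 members past the upper line run from 0.61 for Nr1h3 to 0.90 for Nr1h4 and none lies past the lower line, which the TPM cross of Nr4a3 reaches at -0.59.

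Liver markers had a summed level of 20.15 TPM in pup 2 and 74.98 TPM in pup 1, with 6 of 7 genes 1.5-fold or more lower in pup 2. Gut markers summed to 11.46 TPM in pup 2 and 14.70 TPM in pup 1, and Cdx2 had 0 counts in both. Only 2 of these 5 genes averaged 20 counts or more, and they split. Lgals4 was higher in pup 2 at a log2 ratio of 0.43, and Fabp1 was lower at -1.48. The part of liver or gut cells in the level of Nr1h4 was not tested. Macrophage markers summed to 1969 TPM in pup 2 and 624 TPM in pup 1, and 9 of 11 were 1.5-fold or more higher in pup 2, while Mrc1 was lower there at a log2 ratio of -0.47. Nr1h3, which macrophages express, was higher in pup 2 by counts (0.61) and less so by TPM (0.19), and the part of these cells in its level was not tested.

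By the counting interval alone, 12 members (36.4%) lay above equal levels and 7 (21.2%) below, beside a background of 21.3% above and 26.0% below. Among the abundant receptors the differences were small. Nr1h2 had a log2 ratio of 0.15 (0.07 to 0.23), Rxrb of 0.19 (0.08 to 0.31) and Esrra of 0.27 (0.12 to 0.43). Pparg was lower in pup 2 at -0.27 (-0.36 to -0.17), as was Nr3c1 at -0.17 (-0.25 to -0.09). Nr2f6, Rara and Rarg, with ratios of 0.00, 0.02 and 0.03, were level between the pups on this scale.

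The NR4A family had a log2 ratio of -0.44 for its summed counts (-0.56 to -0.32). Nr4a1 stood at -0.46 (-0.60 to -0.32), from 682 counts in pup 2 and 1241 in pup 1. Nr4a2 stood at -0.43 (-0.76 to -0.11), from 124 and 221 counts. Nr4a3 stood at -0.25 (-0.72 to 0.21), from 66 and 104 counts, so its own interval includes no difference, and its ratio by TPM was -0.59. The REV-ERB pair ran the other way at 0.27 (0.18 to 0.37), carried by Nr1d1, since Nr1d2 stood at 0.14. Neither family was past 1.5-fold as a sum.

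For some members the 2 deposited measures differ. TPM and count ratios had opposite signs in 5 members. In Rara, Rarg and Nr2f6 the count ratio was so near 0 that the shift of 0.08 common to all genes exceeds it, and Nr3c2 and Nr6a1 differed by more than that shift. Ratios were over 0.5 apart on the log2 scale in 3 members. Nr3c2 had a ratio of 0.24 by counts and of -0.55 by TPM, and its effective length was 4505 bases in pup 2 and 2722 in pup 1. Nr6a1 stood at 0.33 by counts and at -0.28 by TPM, and Vdr at 0.82 and 0.29.

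Among the coregulators and chaperones that receptors need, no gene was 1.5-fold apart between the pups. All 9 corepressor genes were detected (median log2 ratio -0.06). They were led by Ncor1, the corepressor of thyroid and retinoic acid receptors, with 79.30 TPM in pup 2 and 92.08 TPM in pup 1, and by its partner deacetylase gene Hdac3 with 66.82 and 60.85 TPM. Of the other subunits of this complex, Tbl1x stood at a log2 ratio of -0.29 (33.69 TPM in pup 2, 43.17 TPM in pup 1) and Gps2 at 0.08 (35.19 and 35.92 TPM). Of the 11 coactivator genes measured, 10 were detected (median -0.01). Ncoa4 had 101.02 TPM in pup 2 and 101.04 TPM in pup 1, and the mediator subunit gene Med1 had 21.75 and 24.58 TPM. Pprc1 had 14.77 TPM in pup 2, against 15.63 TPM in pup 1, and the acetyltransferase gene Crebbp 14.67 against 15.56 TPM. The exception below 1 TPM was Ppargc1a, a coactivator of mitochondrial genes named after its values were seen, with 0.68 TPM in pup 2 and 0.92 TPM in pup 1. All 8 steroid receptor chaperone genes were detected (median -0.15), and 7 were lower in pup 2. The counting interval lay below equal levels in 5 (62.5%), beside 26.0% of all genes. That background is not matched for depth: the interval narrows with counts, and every chaperone gene averaged at least 1058.5 counts. Of the abundant tissue markers, 71.4% for smooth muscle, 83.3% for fibroblasts and 28.6% for urothelium lay below equal levels. Hsp90ab1 had 742 TPM in pup 2 and 767 TPM in pup 1. Hspa8, Hsp90aa1 and Ptges3 stood at log2 ratios of -0.14, -0.26 and -0.16.

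Genes that make, carry or degrade ligands were present for retinoic acid and glucocorticoid. Of 18 such genes, 11 were detected. Among the 14 averaging 20 counts or more, 2 were 1.5-fold or more higher in pup 2 and none was lower (median 0.26). The backgrounds over all genes of that depth were 6.27% higher and 3.35% lower. Dhrs3, which returns retinal to retinol, had 160.99 TPM in pup 2 and 155.22 TPM in pup 1. Aldh1a2, which makes retinoic acid in embryonic mesenchyme, had 42.25 TPM in pup 2 and 37.67 TPM in pup 1. Hsd11b1, which regenerates active glucocorticoid, had 32.07 TPM in pup 2 and 32.18 TPM in pup 1. Among genes named after their values were seen, the inactivating Hsd11b2 had 0.53 TPM in pup 2 and 0.44 TPM in pup 1, and the thyroid hormone deiodinases Dio2 and Dio3 were at or under 0.15 TPM in both pups.

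The responsive genes of each receptor class were counted in the same way, with calls made only among genes averaging 20 counts or more. The backgrounds over all genes of that depth were 6.27% higher and 3.35% lower. Of 12 glucocorticoid-responsive genes, 12 were detected, 1 was 1.5-fold higher in pup 2 and none was lower (median 0.12). The higher one was Sgk1, a kinase gene named after its values were seen, with 24.76 TPM in pup 2 and 16.67 TPM in pup 1 (log2 ratio 0.63). Tsc22d3, an anti-inflammatory glucocorticoid target, had 52.23 TPM in pup 2 and 59.95 TPM in pup 1. The other high ones, Mt1, Cdkn1a and Errfi1, had ratios of 0.33, 0.28 and -0.09. Of 12 PPAR-responsive genes, 10 were detected, 1 was higher and none was lower (median 0.09). Fabp4, a fatty acid carrier, had 685.50 TPM in pup 2 and 827.70 TPM in pup 1. The gene past the threshold was Plin2, a lipid droplet coat gene, with 93.03 TPM in pup 2 and 43.33 TPM in pup 1 (log2 ratio 1.18). Acadm, of mitochondrial fatty acid oxidation, had 52.08 TPM in pup 2 and 59.59 TPM in pup 1.

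LXR-responsive genes had the widest range of ratios among the pathway lists. Of 11, 9 were detected, and these 9 averaged 20 counts or more. Among them 4 were 1.5-fold or more higher and 2 were lower in pup 2, beside 6.27% and 3.35% of all genes of that depth. Their median was 0.38 by counts and 0.19 by TPM. The list contains Nr1h3. Apoe, a lipoprotein gene also made by macrophages, had 1867 TPM in pup 2 and 416 TPM in pup 1 (log2 ratio 2.25). Abcg1, a cholesterol exporter, had 6.28 TPM in pup 2 and 2.52 TPM in pup 1 (1.40). Abca1, a further exporter named after its values were seen, had 3.52 TPM in pup 2 and 2.01 TPM in pup 1 (0.89). Other genes of the list stood elsewhere. Srebf1 had 43.20 TPM in pup 2 and 43.35 TPM in pup 1 (0.04), and Scd2, a desaturase, had 50.17 TPM in pup 2 and 100.58 TPM in pup 1 (-0.92). Its relative Scd1, the other gene past the lower threshold and named after its values were seen, stood at -0.64, and Lpcat3, a phospholipid remodelling enzyme, at 0.13. The macrophage markers, summed above, moved with Apoe, Abcg1 and Abca1, and their part was not tested.

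**Figure D5:**
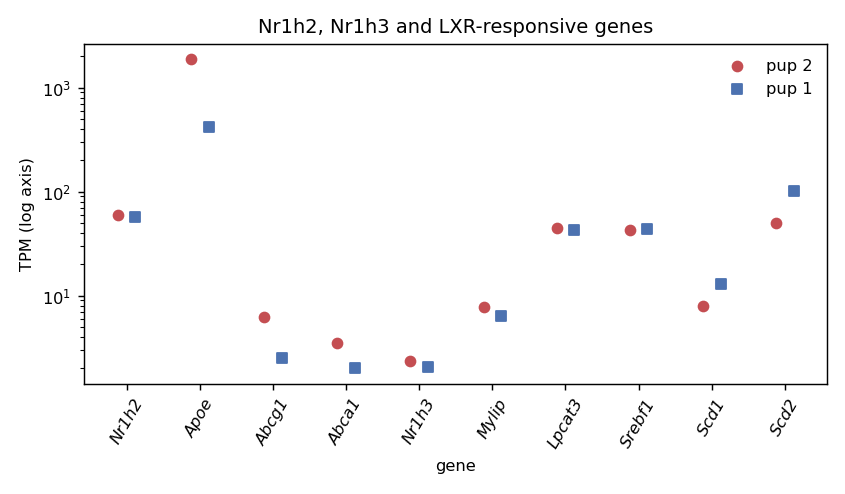
Level in TPM (log axis) in pup 2 and pup 1 of the oxysterol receptor gene Nr1h2 and, to its right, of the LXR-responsive genes averaging at least 20 counts, ordered by their log2 ratio. Apoe is higher in pup 2 at 1867 TPM against 416 TPM in pup 1, Scd2 is lower at 50.17 against 100.58 TPM, and Nr1h2 is alike at 59.95 and 56.73 TPM.

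Of 10 retinoic acid-responsive genes, 5 were detected, 3 were 1.5-fold or more higher in pup 2 and none was lower (median 0.40), and the list contains Rarb, which stood at -0.07. Tgm2, a transglutaminase, had 189.88 TPM in pup 2 and 89.61 TPM in pup 1 (log2 ratio 1.16). The other 2, Crabp2 and Cyp26b1, which are also the 2 ligand genes past the threshold, are named after their values were seen. Crabp2, a retinoic acid carrier, stood at 1.26 from 74 counts in pup 2 and 41 in pup 1, and Cyp26b1, which degrades retinoic acid, at 0.65 from 45 and 38 counts. The more abundant Dhrs3 stood at 0.15. Of 15 clock genes, 14 were detected and none was 1.5-fold apart (median -0.05). Cry1, a repressor of the clock, had 16.70 TPM in pup 2 and 25.24 TPM in pup 1 (-0.52). Nfil3 had 15.93 TPM in pup 2 and 22.97 TPM in pup 1 (-0.45). Bhlhe40 and Cry2 stood at 0.04 and -0.05. By counts 7 of the 15 clock genes were higher in pup 2 and 8 lower, and their relation to Nr1d1 was not tested. Of 5 thyroid hormone-responsive genes, 2 were detected and none was 1.5-fold apart (median -0.37). Me1, malic enzyme, had 61.46 TPM in pup 2 and 81.75 TPM in pup 1. Thrsp and Hr were near 1 TPM, and Klf9, which glucocorticoid also raises, had 17.50 TPM in pup 2 and 24.68 TPM in pup 1 (-0.42).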

How the data were processed

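Gene and transcript files of 2 bladder libraries were used, on mm10 with GENCODE M4 annotation per the labels. The deposited files hold the authors' expected counts (estimated reads per gene, not normalised, with shared reads divided by the RSEM estimator), deposited TPM and FPKM per length and depth, and the authors' transcript share in percent of the gene. For the aligner, the RSEM version and the use of strand, nothing is given in the sources used here. The authors' posterior SD of each count (a score) was deposited too and not used in a result. Identifiers were matched to GENCODE M21 on the same assembly (42462 of 43346 mouse genes). Detection was set at 1 TPM in both pups. Expected counts, rounded to whole numbers, were scaled over all mouse genes with TMM (R 4.3.3, edgeR 4.0.16). Ratios set pup 2 over pup 1 on a log2 scale, 0 counts being set to 3, with an exact binomial (Clopper-Pearson) interval at 95%, which covers counting error only. Called genes averaged 20 counts or more and were 1.5-fold apart. Since each animal gave 1 library, no test was run. Both pups are of 1 litter. The steps were tested on simulated counts. Alternatives were DESeq2 1.42.0 size factors, total counts, deposited TPM, FPKM and posterior means, other thresholds and single pups. Members and gene lists were chosen with earlier results of these data known. All 46 members are accounted for. Of each list the 4 highest by mean TPM and any gene 2-fold apart at a mean count of at least 100 were named, except 2 that are not reported here, and the text says where another gene was chosen after its values were seen. Prmt1 and Ahsp were not matched by symbol and were not analysed here. Promoter windows came from RefSeq (250 bases before and 50 after a start), and 4 members had none. Computation used Python 3.11.15, pandas 2.3.3, numpy 2.4.6 and scipy 1.17.1.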

Additional observations from a re-analysis of the deposited data

How the results depend on the processing

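The count of 5 members at least 1.5-fold higher in pup 2 became 2 by the ratio of deposited TPM (Nr1h4 and Esr1), 1 at a mean count of at least 100 (Nr1d1), 7 with no filter on low counts (leaving out members with 3 or fewer counts in both pups) and 0 at 2-fold. The count of 0 lower members became 1 by TPM (Nr4a3) and 4 with no filter. The median log2 ratio of LXR-responsive genes was 0.38 by counts and 0.19 by TPM, an alternative chosen after seeing the data. The median of the members, 0.13, was 0.03 at a mean count of at least 100, 0.03 with no filter and -0.02 by TPM. The number detected, 24, ranged from 21 at 2 TPM to 28 at 0.5 TPM, and was 25 without replicate 1 and 24 without replicate 2. Log2 ratios moved beyond their interval in 7 of 33 members by TPM and in 0 of 33 by DESeq2 size factors, total counts or posterior mean counts. Levels moved by more than 1 SD in 8 of 25 members by posterior mean TPM. The causes were not tested. No paired analysis was possible because the pups form a single group. Depth limits the 13 members under a mean count of 20, and in the deposited files the TPM lay below the authors' lower credibility bound in 13 members in pup 2 and 8 in pup 1.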
